A study of Mus musculus with 6 samples.

Results

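The genes described here are 10 islet hormone and secretory granule genes, Ins1, Ins2, Gcg, Sst, Ppy, Pyy, Iapp, Chga, Chgb and Pcsk1, measured in cultures of mouse pancreatic acini. They were picked by gene name from 56953 genes in the deposited count table, and the rule itself uses no measured value. All 10 had counts in every library and all 10 passed the filter on low counts, which left 14738 genes.

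The endocrine pancreas consists of islets of Langerhans scattered among the acini, the enzyme-secreting units of the exocrine pancreas. Beta cells make insulin and amylin, alpha cells glucagon, delta cells somatostatin and PP cells pancreatic polypeptide, and each stores its peptide in dense-core granules. The peptides are cut from longer precursors by prohormone convertases, and granins help to pack them, so a hormone message and a granule message are both marks of endocrine cells. Acinar cells secrete digestive enzymes from zymogen granules instead and are not a known source of these hormones.

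Bulk RNA-seq was performed on 6 acinar cultures at day 3 of an ex vivo assay of acinar-to-ductal metaplasia (ADM), in which explanted acini take on duct-like features. Each of 3 groups had 2 libraries: wild-type acini (WT), acini from Dkk3-null mice (DD) and DD acini given recombinant DKK3 (DD + rDKK3). DKK3 is a secreted glycoprotein, and the null allele was made by replacing exon 2 of Dkk3 in the whole animal. All cultures shared Waymouth medium with fetal bovine serum, antibiotics, trypsin inhibitor and dexamethasone, a synthetic glucocorticoid, and the acini were embedded in Matrigel. The labels give 10 and 11 weeks of age for WT, 12 and 13 weeks for DD, and 14 and 15 weeks for DD + rDKK3, so labelled age and group cannot be told apart. The labelled ages differ between the libraries of a group, but no label names the animals, and the titles of DD and DD + rDKK3 libraries share the names DD1 and DD2. The p-values measure the spread between these libraries, part of which may be technical.

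Library totals ranged from 12018473 to 19750401 counts. Dkk3 had 1 to 11 counts per library and was no lower in the libraries labelled DD, and a gene count does not separate the replaced exon. WT 2 was labelled female but held Y-linked transcripts (Ddx3y, Uty, Kdm5d and Eif2s3y summed) at 141 CPM, within the 119 to 147 CPM of the libraries labelled male. It also had 16 Xist counts, where the other 5 libraries had 0, and the source of either signal was not tested. CPM is the count of a gene scaled to library depth after TMM (trimmed mean of M values) adjustment. Acinar enzyme genes, of which 12 of 12 passed the filter, had a sum of 107544 to 185295 CPM, to which Amy2a1 gave the least, a mean of 2.02 CPM.

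The upstream sequences of the genes are shown first, because Ins1, Gcg and Iapp stood among the most abundant hormone messages and Ins1 and Gcg moved together over the libraries. The 250 bases before the transcript start were taken from RefSeq (GRCm38.p6) for 9 of the 10 genes, 10 windows in all, and each was placed by its single exact match in GRCm39. Ins2 had no window, so its upstream letters were not searched. Capitals mark the TATA box letters TATAAA, the core TAAT of sites for homeodomain factors, the E-box CATCTG and the cyclic AMP response element TGACGTCA, each on either strand, and neighbouring matches of the homeodomain core can overlap. Of 32851 windows of the same length, 12.37% held the TATA box letters, 54.92% the homeodomain core, 14.44% the E-box and 1.55% the cyclic AMP response element. A match describes the letters only. The Ins1 window lies at chr19:52252485-52252734 on the plus strand, the Gcg window at chr2:62313998-62314247 on the minus strand and the Iapp window at chr6:142243901-142244150 on the plus strand.
Ins1: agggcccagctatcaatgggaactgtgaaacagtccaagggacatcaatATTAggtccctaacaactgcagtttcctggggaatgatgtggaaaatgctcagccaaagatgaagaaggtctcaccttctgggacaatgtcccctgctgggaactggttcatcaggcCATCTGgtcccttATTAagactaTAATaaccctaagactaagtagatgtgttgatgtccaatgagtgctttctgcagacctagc
Gcg: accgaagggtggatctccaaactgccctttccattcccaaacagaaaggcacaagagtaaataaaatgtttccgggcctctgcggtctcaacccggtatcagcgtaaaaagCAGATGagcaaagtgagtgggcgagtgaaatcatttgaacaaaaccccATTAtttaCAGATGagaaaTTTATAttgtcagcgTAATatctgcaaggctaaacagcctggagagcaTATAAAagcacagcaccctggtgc
Iapp: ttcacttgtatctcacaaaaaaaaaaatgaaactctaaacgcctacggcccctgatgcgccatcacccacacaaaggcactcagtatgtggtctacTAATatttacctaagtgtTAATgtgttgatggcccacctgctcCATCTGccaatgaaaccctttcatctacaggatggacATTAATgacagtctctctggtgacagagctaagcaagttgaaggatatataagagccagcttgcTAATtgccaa

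The Ins1, Gcg and Iapp windows each held the homeodomain core and the E-box. The cyclic AMP response element was found in the windows of 3 of the genes, Sst, Chgb and Pcsk1, and the 28 bases around it are shown for comparison of its surroundings. It began 48 bases before the RefSeq start in Sst, 72 bases before it in Chgb and 78 bases before it in Pcsk1.
Sst: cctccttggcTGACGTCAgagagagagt
Chgb: ggctgctccgTGACGTCAgggctgagcg
Pcsk1: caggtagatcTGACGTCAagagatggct

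Together the 10 genes took 0.0173% to 0.0317% of all counts in a library. Their summed level was 297 and 277 CPM in WT, 199 and 303 CPM in DD, and 267 and 166 CPM after rDKK3. The lowest sum was in DD + rDKK3 2 and the highest in DD 2, and the groups overlapped. In bulk RNA a smaller number of endocrine cells and less message per cell cannot be told apart.

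Per length of merged exons in a later annotation (GENCODE M39), Iapp had the highest mean level over the 6 libraries, 102 RPKM (counts scaled to depth and to transcript length). Gcg followed with 31.6, Ins2 with 28.9, Ins1 with 24.7 and Chga with 12.6 RPKM. The remaining genes were at 5.38 RPKM (Pyy), 2.54 (Ppy), 2.42 (Chgb), 0.623 (Pcsk1) and 0.341 (Sst). Some places depended on the length used. The 1660 bases of merged Ins2 exons include far upstream exons. With the 469 bases of its canonical transcript, Ins2 stood at 102 RPKM beside Iapp. Canonical lengths also put Sst (0.717 RPKM) above Pcsk1 (0.690) and Chgb (2.66) above Ppy (2.54). The M39 gene of Sst extends beyond the span in the deposited table. Its M39 transcripts inside that span cover 696 bases, against 3628 merged and 1723 canonical bases. Both RPKM values of Sst may thus be too low, and its last place is not settled. Chgb and Pcsk1 also extend beyond their deposited spans in M39. Neighbours from Gcg to Ins1 in the order by merged exons did not differ beyond their spread over libraries.

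**Figure D1:**
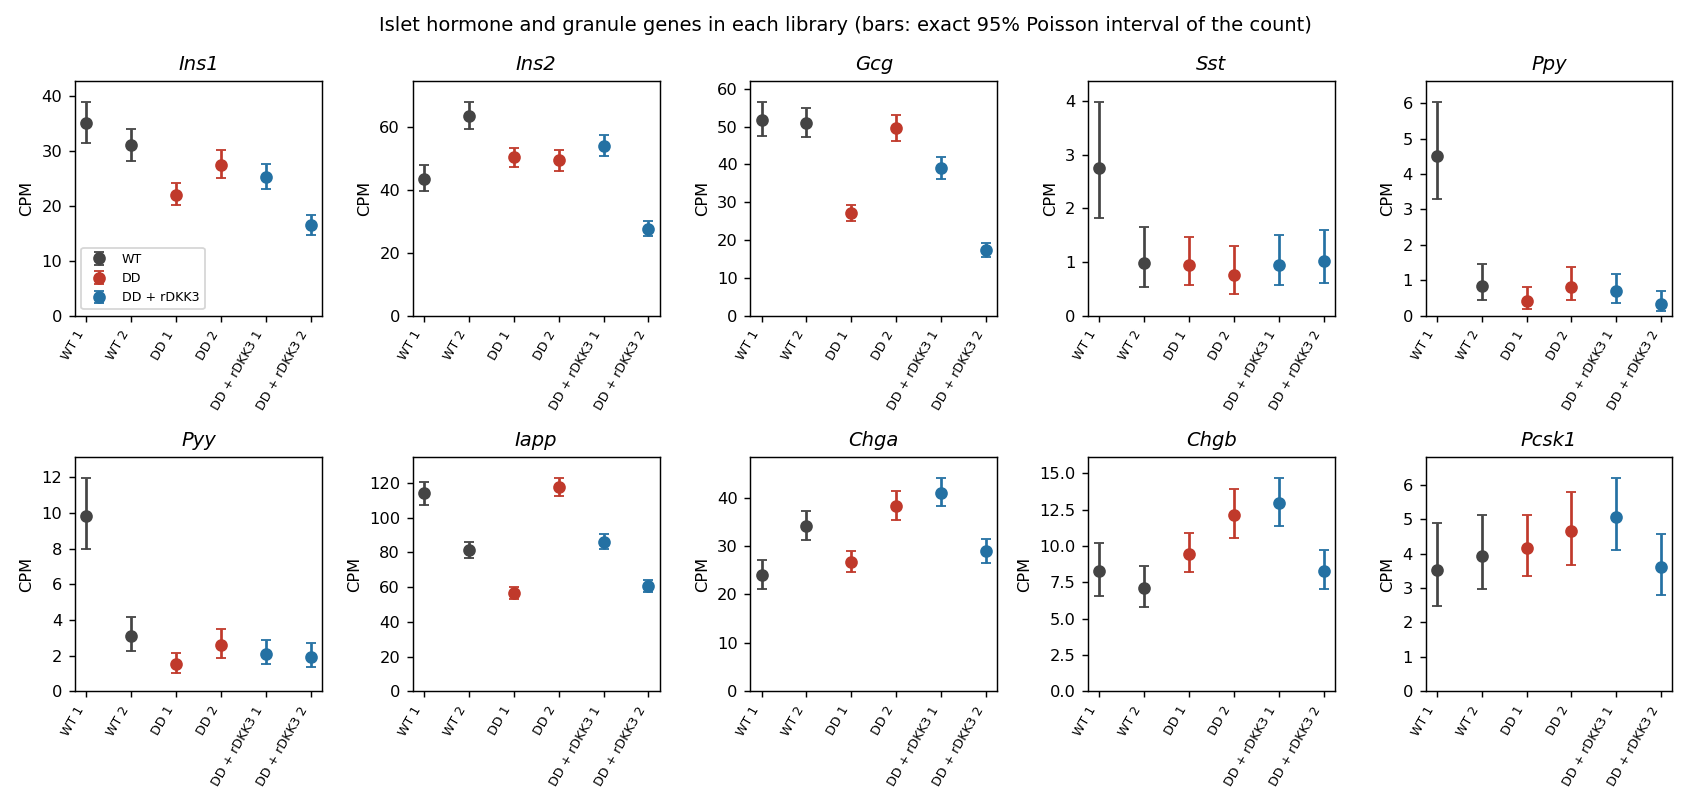
CPM of each gene (y axis, linear from 0) in each of the 6 libraries (x axis), with points coloured by group and bars for the exact 95% Poisson interval of the count. Sst, Ppy and Pyy stand high in WT 1 alone, and Ins1, Ins2 and Gcg are lowest in DD + rDKK3 2.

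Among the beta cell products, Ins1 was at 35.0 and 31.0 CPM in WT, at 22.0 and 27.5 CPM in DD, and at 25.3 and 16.4 CPM after rDKK3. Both WT libraries were above all 4 DD and DD + rDKK3 libraries, but the counting intervals of WT 2 and DD 2 overlapped. Ins2, the other mouse insulin gene, was at 43.5 and 63.4 CPM in WT, at 50.2 and 49.3 CPM in DD, and at 54.0 and 27.5 CPM after rDKK3. The groups overlapped for Ins2, and DD + rDKK3 2 was lower than the other 5 libraries. Iapp, which encodes amylin, the peptide released with insulin, was at 114 and 81.3 CPM in WT, at 56.6 and 117 CPM in DD, and at 86.0 and 60.5 CPM after rDKK3. For Iapp both the highest and the lowest library were DD cultures. The insulin transcripts shared few stretches of read length, 7 of 1013 words of 50 bases in Ins1 and 7 of 420 in Ins2, so few reads could be split between them.

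Gcg, the precursor of glucagon, was at 51.8 and 51.0 CPM in WT, at 27.1 and 49.5 CPM in DD, and at 39.0 and 17.3 CPM after rDKK3. The WT replicates were nearly equal, whereas the DD replicates differed 1.83-fold and the DD + rDKK3 replicates 2.25-fold. Both WT libraries were above the other 4, but the counting intervals of WT 2 and DD 2 overlapped. Sst, which encodes somatostatin, the inhibitor of insulin and glucagon release, was at 2.75 and 0.983 CPM in WT, at 0.946 and 0.764 CPM in DD, and at 0.951 and 1.02 CPM after rDKK3. These levels rest on 13 to 28 counts, and WT 1 alone stood apart.

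Ppy and Pyy encode the related peptides pancreatic polypeptide and peptide YY and lie 5356 bases apart on chromosome 11. Ppy was at 4.52 and 0.843 CPM in WT, at 0.426 and 0.823 CPM in DD, and at 0.687 and 0.323 CPM after rDKK3, on 6 to 46 counts. Pyy was at 9.82 and 3.09 CPM in WT, at 1.51 and 2.59 CPM in DD, and at 2.11 and 1.94 CPM after rDKK3, on 32 to 100 counts. WT 1 was the highest library for both genes, and its 95% Poisson interval lay above that of every other library. WT 2 lay next to the DD and DD + rDKK3 libraries and just above them. The canonical transcripts of Ppy and Pyy shared 0 words of 50 bases.

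Neither the hormone genes nor the granule genes had a single order of libraries. Chga, which encodes chromogranin A, was at 24.0 and 34.1 CPM in WT, at 26.7 and 38.3 CPM in DD, and at 41.0 and 29.0 CPM after rDKK3. Chgb, which encodes chromogranin B, was at 8.25 and 7.09 CPM in WT, at 9.46 and 12.1 CPM in DD, and at 12.9 and 8.28 CPM after rDKK3. Both WT libraries were below all 4 other libraries for Chgb, by a margin within the counting error at its narrowest, and the groups overlapped for Chga. Pcsk1, the prohormone convertase that cuts proinsulin, was at 3.54 and 3.93 CPM in WT, at 4.16 and 4.64 CPM in DD, and at 5.07 and 3.60 CPM after rDKK3. All 3 granule genes were highest in DD + rDKK3 1, whereas the hormone genes were highest in WT 1, WT 2 or DD 2.

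The spread between libraries was described for the 10 genes beside all genes tested. The median ratio of the highest to the lowest library was 2.22 for the 10 genes and 1.62 over all genes tested. Between replicates the median fold of the 10 genes was 1.41 (WT), 1.36 (DD) and 1.48 (DD + rDKK3), against 1.23, 1.22 and 1.13 over all genes, and 6, 8 and 8 of the 10 genes lay above those medians. Gcg, Ins1, Chgb and Pcsk1 lay below it in WT. The Poisson intervals of the replicates did not overlap for 6 of 10 WT values, 4 of 10 DD values and 6 of 10 after rDKK3, where the shares over all genes were 30.2%, 37.5% and 19.5%. These intervals cover counting error only, which separate cultures of abundant genes can exceed. WT 1 was the highest library for 5 genes (Ins1, Gcg, Sst, Ppy and Pyy), and DD + rDKK3 2 was the lowest for 4 (Ins1, Ins2, Gcg and Ppy).

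**Figure D2:**
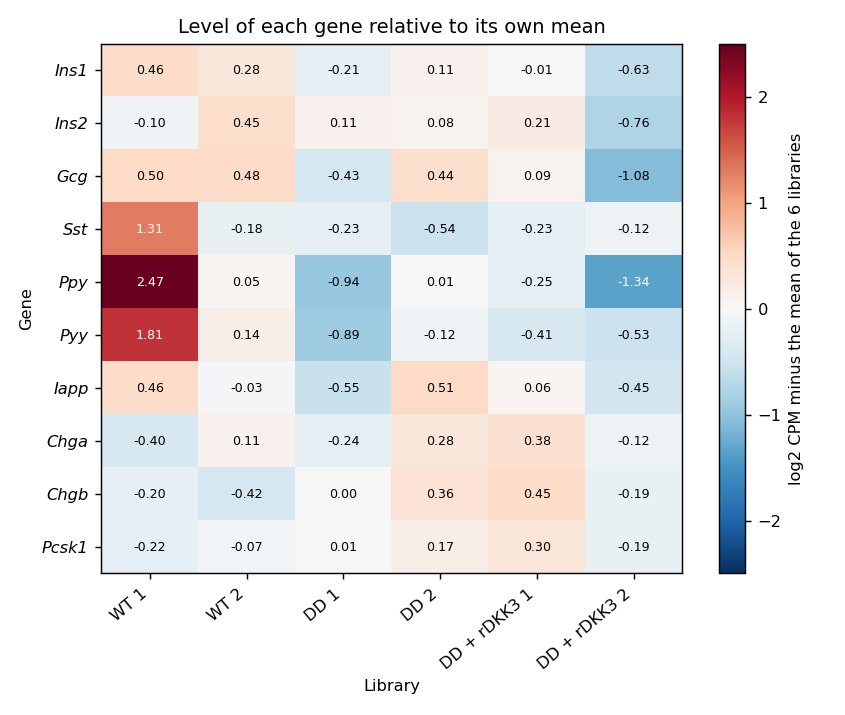
Difference of each gene's log2 CPM from its own mean over the 6 libraries (rows are genes, columns libraries, red above and blue below the mean). Ppy, Pyy and Sst reach 2.47, 1.81 and 1.31 in WT 1, and Gcg reaches -1.08 in DD + rDKK3 2.

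Correlations over the 6 libraries are a description that shares its libraries and scaling, and used log2 CPM with a prior count of 2. Ppy and Pyy had a Pearson r of 0.973, and Ins1 and Gcg 0.963. Chgb and Pcsk1 had an r of 0.875, and Ins1 with Chga had 0.0085. WT 1 was the highest library for Ppy and Pyy, and DD + rDKK3 2 the lowest for Ins1 and Gcg. Of genes outside the list, 1700052K11Rik, Blnk, a B cell adaptor, Gm12059, Ap3m2 and Letm2 had the highest r with Ins2, from 0.969 to 0.988, at mean levels below those of Ins2. Gcg had an r of 0.755 with Ins2, and 418 of 14728 genes outside the list had a higher one. For the other hormone genes the r with Ins2 was 0.686 (Ins1), 0.308 (Iapp), 0.197 (Ppy), 0.048 (Pyy) and -0.169 (Sst). For the granule genes it was 0.516 (Pcsk1), 0.414 (Chga) and 0.150 (Chgb), so Ins2 did not move with all the other hormone genes. Among the hormone genes other than Ins2, every pair had an r above 0, from 0.267 (Gcg and Sst) to 0.973 (Ppy and Pyy).

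Proportions within a library do not depend on the scaling between libraries. Ins1 gave 44.6% of insulin counts in WT 1 (95% Wilson interval 41.1 to 48.0) and 32.8% in WT 2 (30.4 to 35.4). Its share was 30.5% and 35.8% for DD and 31.9% and 37.4% after rDKK3. WT 1 was thus the one library whose interval lay above all others, and the groups overlapped. Gcg gave 39.7% and 35.1% of Gcg and insulin counts in WT, then 27.3% and 39.2% in DD and 33.0% and 28.3% after rDKK3. Iapp gave 59.2% and 46.3% of Iapp and insulin counts in WT, then 43.9% and 60.5% in DD and 52.0% and 57.9% after rDKK3. For the Gcg and Iapp shares, the replicates of DD were further apart than the group means.

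The ratio of granule counts (Chga, Chgb and Pcsk1) to hormone counts (the other 7 genes) was chosen after the values were seen. The WT libraries had ratios of 0.137 and 0.195, the DD libraries 0.254 and 0.222, and those given rDKK3 0.284 and 0.327. These ratios did not overlap between any of the 3 groups, and they are given as a description with no test.

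**Figure D3:**
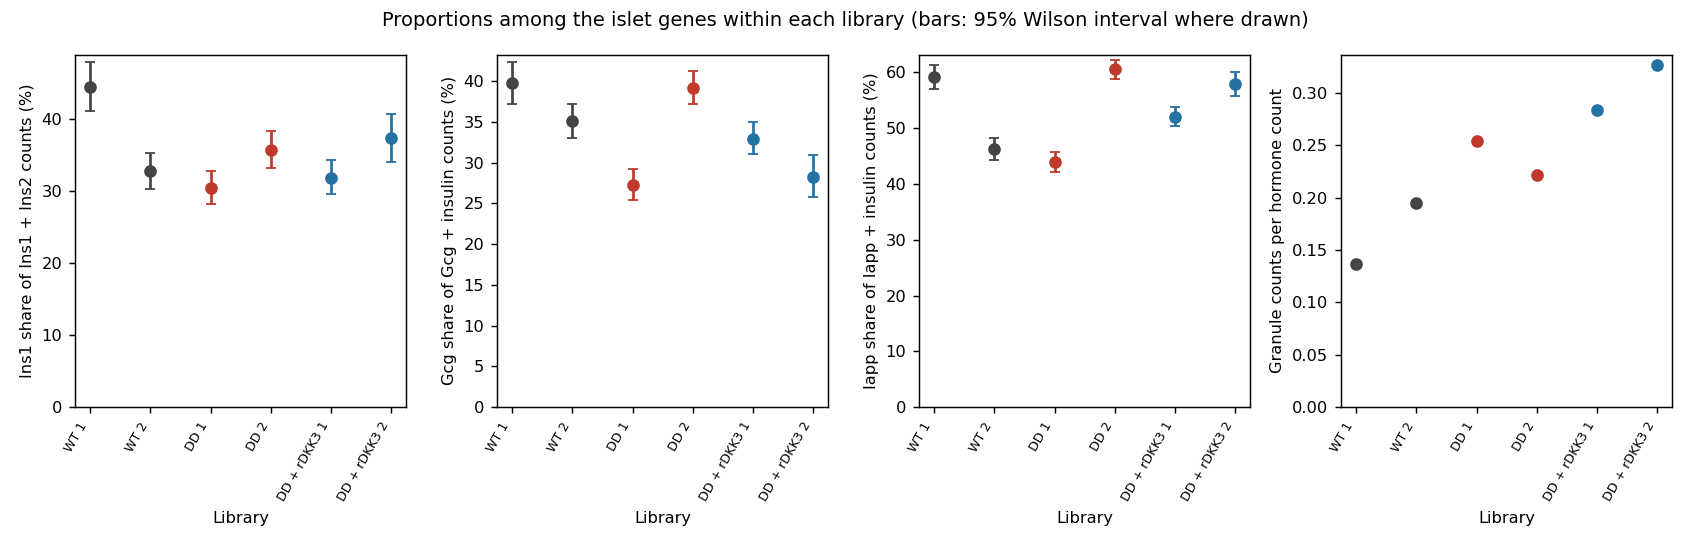
Share of Ins1 in insulin counts, of Gcg in Gcg and insulin counts and of Iapp in Iapp and insulin counts (y axes in percent, bars for 95% Wilson intervals), and granule counts per hormone count (right, no interval), in each library. The first 3 overlap between groups. The ratio on the right, chosen after the values were seen, runs from 0.137 and 0.195 in WT to 0.284 and 0.327 in DD + rDKK3.

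DD and WT acini were compared to ask which messages differ without DKK3. All 7 hormone genes had a fold change below 0 and all 3 granule genes one above 0, but those of Ins2 and Iapp turned positive when counts were scaled by library totals alone. With 1 library left out, Ins2 turned to 0.20 (without WT 2), Iapp to 0.11 and 0.29 (without WT 1 and DD 1) and Chga to -0.056 and -0.12 (without WT 1 and DD 2). Over all genes tested 48.3% of fold changes were below 0. With edgeR's quasi-likelihood test and Benjamini-Hochberg adjusted p over all genes tested, 0 of the 10 genes were called, where 0.0407% of all genes were. At an unadjusted p under 0.05 there were 2, Ppy and Pyy, where the share over all genes was 8.26%, and DESeq2 called 0 and had 2 at that level. The groups did not overlap for 7 genes, 5 lower and 2 higher in DD, where 37.8% of all genes did not overlap, 19.7% lower and 18.1% higher. For each of the 7, the Poisson intervals of the nearest WT and DD libraries overlapped, as for Sst with 14 counts in WT 2 and 20 in DD 1. The median log2 fold change was -0.29 for the 10 genes and 0.016 for all genes tested.

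Ppy had a log2 fold change of -2.08 in DD against WT (SE 0.814, edgeR adjusted p 0.586). For Pyy it was -1.64 (SE 0.546, adjusted p 0.586) and for Sst -1.09 (SE 0.546, adjusted p 0.586). These 3 values rested on WT 1, and without it they were -0.43, -0.58 and -0.18. Without WT 2 they were -2.85, -2.26 and -1.67. For the more abundant hormone genes the fitted differences were smaller, -0.41 for Ins1 (SE 0.231, adjusted p 0.590), -0.43 for Gcg (SE 0.390, adjusted p 0.687) and -0.11 for Ins2 (SE 0.311, adjusted p 0.908). The value for Gcg was -0.03 without DD 1 and -0.92 without DD 2. Chgb had the largest fitted difference among the granule genes, 0.49 (SE 0.269, adjusted p 0.590), and its 95% interval of -0.13 to 1.12 included 0.

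The addition of rDKK3 to DD acini asked whether the protein shifts these messages back. None of the 10 genes was called by edgeR, where 0.0% of all genes were, and every adjusted p was 0.9999. At an unadjusted p under 0.05 there were 0 (1.98% of all genes), and DESeq2 called 0. The groups did not overlap for 1 gene, Sst, where 29.5% of all genes did not. Its nearest libraries lay within counting error, at 0.946 CPM in DD 1 and 0.951 CPM in DD + rDKK3 1. The log2 fold change of Gcg was -0.44, with a 95% interval of -1.35 to 0.47. It was -0.29 for Ins2 (-1.01 to 0.43) and -0.25 for Iapp (-1.06 to 0.57). Intervals this wide leave changes of either sign possible, and a p above the threshold does not show that the groups are alike. Of the 10 fold changes, 9 took the other sign when 1 library was left out, Sst being the exception.

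DD + rDKK3 against WT shared the WT libraries with the first comparison and the DD + rDKK3 libraries with the second. Again 0 of the 10 genes were called by edgeR (0.0475% of all genes) and by DESeq2, which gave no adjusted p for 6 of them. At an unadjusted p under 0.05 edgeR had 3, Ins1, Ppy and Pyy, all lower, where the share over all genes was 15.3%. DESeq2 had 4 at that level, these 3 and Gcg, which was also lower. The groups did not overlap for 5 genes, 4 lower and 1 higher, where 55.0% of all genes did not overlap, 27.1% lower and 27.9% higher. The Poisson intervals of the nearest libraries overlapped for Ppy, Pyy and Chgb, but not for Ins1 and Gcg. Ins1 had a log2 fold change of -0.66 (SE 0.232, adjusted p 0.321), Gcg -0.87 (SE 0.394, adjusted p 0.334), Ppy -2.36 (SE 0.829, adjusted p 0.321) and Pyy -1.65 (SE 0.546, adjusted p 0.321). Without WT 1 the values for Ppy and Pyy were -0.71 and -0.59. For Gcg the value depended on the DD + rDKK3 replicates, at -1.57 without DD + rDKK3 1 and -0.39 without DD + rDKK3 2.

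**Figure D4:**
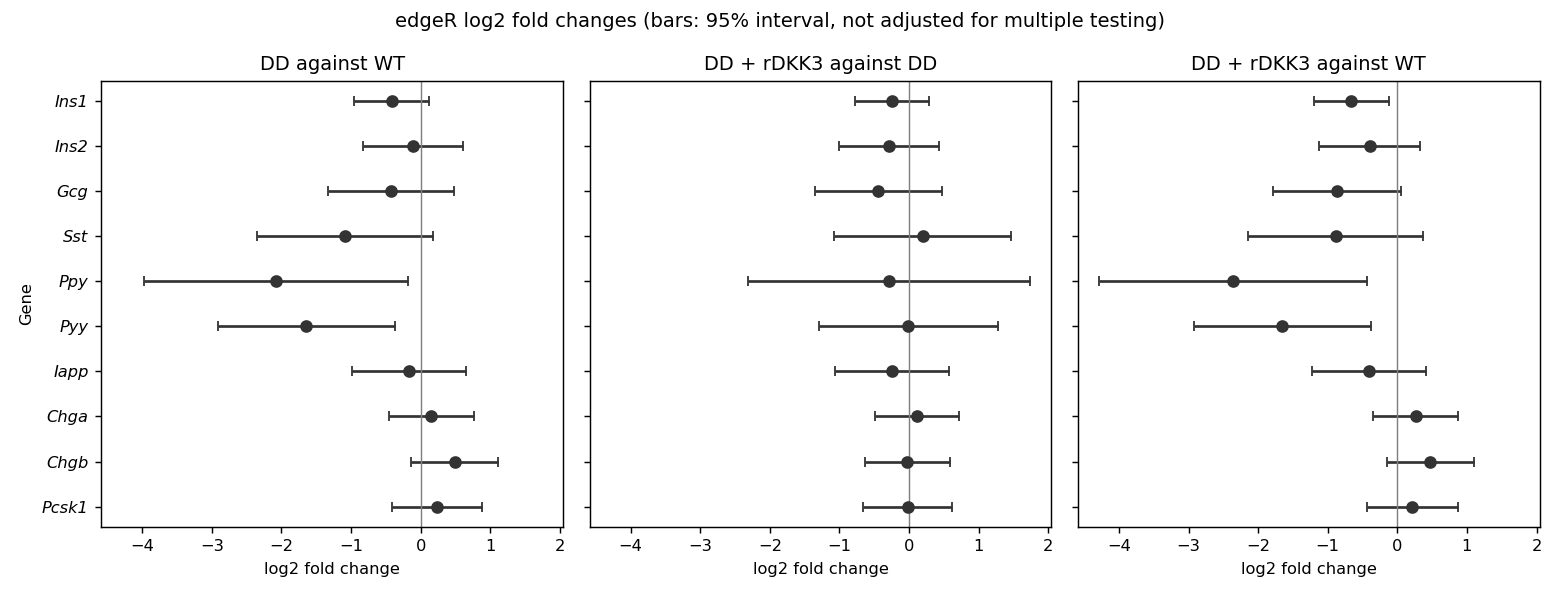
edgeR log2 fold changes of the 10 genes (x axis) in the 3 comparisons, with 95% intervals that are not adjusted for multiple testing. Only Ppy and Pyy in both comparisons with WT, and Ins1 in DD + rDKK3 against WT, have intervals that leave out 0.

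**Figure D5:**
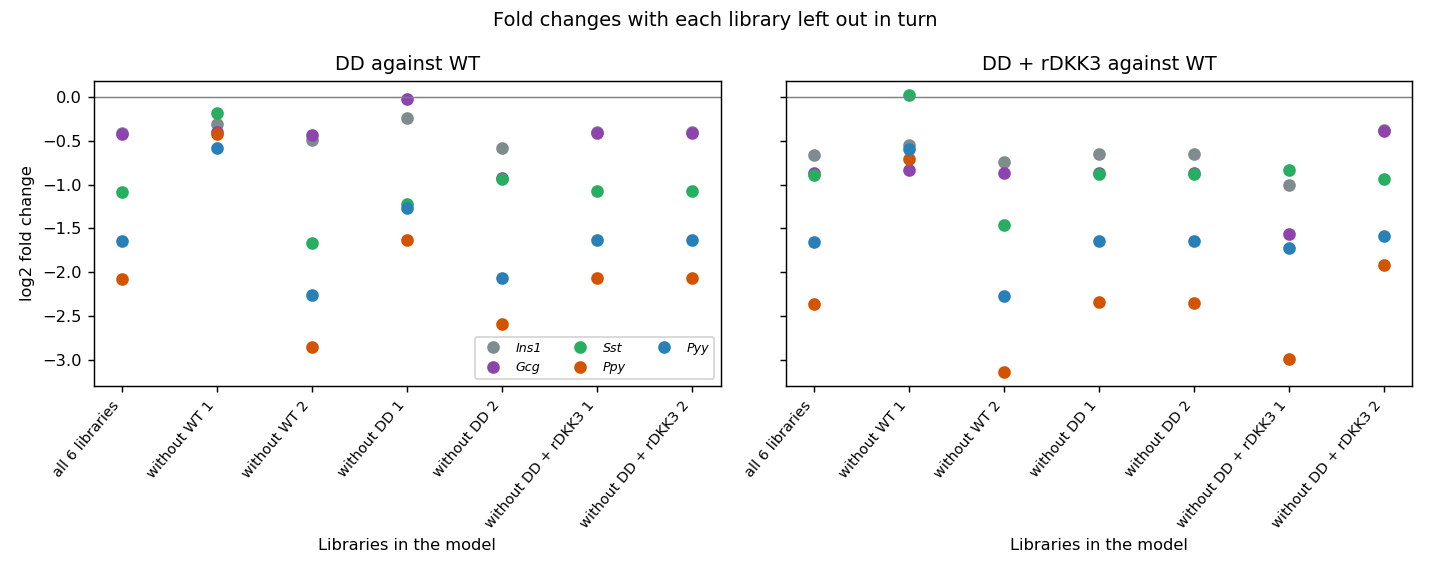
log2 fold changes (y axis) of Ins1, Gcg, Sst, Ppy and Pyy in both comparisons with WT, with all 6 libraries and with each library left out in turn (x axis). Without WT 1, Ppy moves from -2.08 to -0.43 in DD against WT and from -2.36 to -0.71 in DD + rDKK3 against WT.

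Other islet genes were examined from lists of known markers, and none of their genes was called by edgeR in any comparison. Of 15 islet transcription factors, 6 passed the filter, led by Hhex, Pdx1 and Nkx2-2 at mean levels of 9.47, 8.26 and 5.07 CPM. Hhex marks delta cells and Pdx1 beta cells, but both also have roles in exocrine tissue. Nkx6-1 passed as well, at a mean of 1.49 CPM on 9 to 37 counts. Mafa, Neurod1 and Isl1 did not pass, with at most 4, 9 and 16 counts in any library, and Pax4 was at 0 in all 6. At an unadjusted p under 0.05, Insm1 was the 1 factor in DD against WT and in DD + rDKK3 against DD, on 3 to 35 counts, with log2 fold changes of 1.31 and -2.56 (adjusted p 0.586 and 0.9999).

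Of 17 other processing and granule genes, 15 passed. The most abundant were Cpe, the carboxypeptidase that trims prohormones, at 137 CPM, Ptprn2 at 63.5 and Pam, which amidates peptides, at 54.9. Their fold changes for DD against WT had a median of 0.14 on the log2 scale, with 10 of 15 above 0. The convertase Pcsk2, which cuts proglucagon, was at 4.52 to 7.24 CPM with no difference past the threshold.

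Of 10 glucose sensing and beta cell surface genes found, 7 passed, among them Ero1b, an oxidoreductase for proinsulin folding, at 86.6 CPM and Glp1r, the receptor of the incretin GLP-1, at 10.7. Of 9 alpha, delta and epsilon cell genes, 5 passed, with Ttr at 22.9, Gc at 19.1 and Slc7a2 at 13.6 CPM. Their median log2 fold changes in DD against WT were -0.13 and 0.14. Of 16 receptors for the islet hormones, 7 passed, with Insr at 67.4, Ramp1 at 34.0 and Igf1r at 18.1 CPM. Sstr1, Sstr4, Npy2r and Npy5r were at 0, and the receptor gene Calcr had at most 1 count in any library. Ramp1, a partner of the amylin receptor, was at 48.5 and 42.2 CPM in WT, then 24.9 and 27.6 CPM in DD and 30.7 and 30.0 CPM after rDKK3. Both WT libraries were above the rest, and for DD against WT the log2 fold change was -0.79 (edgeR adjusted p 0.393).

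Markers of other cell types were summed per library to show what moved beside the islet genes, and none of these genes was called by edgeR in any comparison either. Gut endocrine cells also make Pyy and Sst. Of 7 enteroendocrine hormones only Cck passed, at 5.60 and 1.40 CPM in WT, then 2.37 and 26.98 CPM in DD and 6.07 and 24.5 CPM after rDKK3, and Gip and Tph1 were at 0. Neuron and Schwann cell markers, of which 2 of 9 passed, summed to 7.81 to 14.8 CPM. The fibroblast and stellate cell markers, of which 8 of 8 passed, summed to 752 CPM in DD 2 and 833 CPM in DD + rDKK3 2, and to 48.6 to 153 CPM in the others. Cck was high in the same libraries.

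Endothelial markers (4 of 4) summed to 80.3 to 144 CPM. Macrophage markers (5 of 5) summed to 181 CPM in DD 2 and 142 CPM in DD + rDKK3 2, and to 54.4 to 76.3 CPM in the others. Duct markers (7 of 7) summed to 1597 to 2526 CPM, and acinar transcription factors (5 of 5) to 287 CPM in WT 1 and 403 to 523 CPM in the others. The acinar enzyme sum was highest in WT 1, the library in which Ppy, Pyy and Sst stood apart, at 185295 CPM against 141831 in WT 2, then 119687 and 107544 CPM in DD and 140630 and 115597 CPM after rDKK3. In DD against WT all 12 enzyme genes had a fold change below 0, with a median log2 value of -0.70 and 6 at an unadjusted p under 0.05, where over all genes 48.3% were below 0 and 8.26% passed that p. The part of these cell types in the levels of the islet genes was not tested.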

How the data were processed

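Bulk RNA-seq of 6 acinar cultures (3 groups of 2 libraries) was analysed from the deposited table of raw counts of read pairs by gene. Per their methods, the authors aligned strand-specific reads with STAR 2.7.9a to GRCm39, counted reads over exons of the basic GENCODE M32 annotation and summed them per gene. The table has 1 column for each library. The submitters' processing notes also list Picard 2.19.2, R 4.2.2 and DESeq2 1.38.0. Of 57045 features, 92 spike-in rows held 0 counts and were left out.

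Counts were filtered by filterByExpr (minimum count 10, minimum total 15), scaled by TMM and fitted with the edgeR 4.0.16 quasi-likelihood model (R 4.3.3) over all 6 libraries, with 3 residual degrees of freedom and a biological coefficient of variation of 0.215. P-values are two-sided and Benjamini-Hochberg adjusted over 14738 genes, with calls made below 0.05. Library totals ranged from 12018473 to 19750401, and intervals (95% Poisson or Wilson) cover counting error only. RPKM used GENCODE M39 lengths. The procedure was tested on simulated data. Alternatives were RLE scaling, library totals, no filter, DESeq2 1.42.0, each library left out and replicate blocks.

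The members and the 13 marker lists were chosen with earlier results of these data known. Named list genes are the 3 with the highest mean CPM and any called. Insm1, Pcsk2 and genes named for low or 0 counts were chosen after their values were seen. The results of 2 list members are not reported here.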

Additional observations from a re-analysis of the deposited data

How the results depend on the processing

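The count of islet genes called was 0 in the 3 comparisons under RLE scaling, library totals, DESeq2 and both replicate blocks, and rose without the low-count filter, with 26506 genes tested, to 2 in DD against WT (Ppy and Pyy) and 3 in DD + rDKK3 against WT (Gcg, Ppy and Pyy). The cause was not tested. Of 360 alternative fold changes, 5 were called. Over all genes, the numbers called were 6 (DD against WT), 0 (DD + rDKK3 against DD, with 292 at an unadjusted p under 0.05) and 7 (DD + rDKK3 against WT). They became 528, 73 and 788 without the filter and 80, 5 and 74 with DESeq2. With 1 library left out they were 2 to 6, 0 to 0 and 2 to 9, and a lone library was then assumed to vary like the other groups. Library totals shifted the median log2 value over genes to 0.22 for DD and 0.18 for DD + rDKK3, each against WT, and turned Ins2 to 0.080 and Iapp to 0.053 in DD against WT. Of 120 CPM values, 112 stayed within the counting interval.

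The titles repeat the names DD1 and DD2 in treated and untreated Dkk3-null cultures, whose labelled ages differ, and no label names a shared animal, so the numbers were used as a block only in the alternatives. Same-numbered deviations had an r of -0.39 for WT with DD, -0.25 for WT with DD + rDKK3 and 0.65 for DD with DD + rDKK3. The replicate block over all groups called 7, 0 and 5 genes, and the replicate block fitted within Dkk3-null libraries called 20 for DD and 15 for DD + rDKK3, each against WT, with 0 islet genes in each. The latter turned Ins2 to 0.16 in DD against WT and Pyy to 0.022 in DD + rDKK3 against DD.

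With 1 library left out, 24 of 180 fold changes took the other sign. In DD against WT the ranges were -0.34 to 0.20 for Ins2, -0.78 to 0.29 for Iapp and -0.12 to 0.44 for Chga. In DD + rDKK3 against DD they were -0.61 to 0.025 for Ins1, -0.87 to 0.11 for Ins2, -1.16 to 0.059 for Gcg, -0.93 to 0.24 for Ppy, -0.37 to 0.42 for Pyy, -0.70 to 0.37 for Iapp, -0.18 to 0.39 for Chga, -0.40 to 0.26 for Chgb and -0.30 to 0.20 for Pcsk1. In DD + rDKK3 against WT they were -0.96 to 0.017 for Ins2, -1.47 to 0.023 for Sst, -0.0081 to 0.55 for Chga and -0.055 to 0.44 for Pcsk1. With 2 libraries a group, even fitted log2 differences of -2.08 (Ppy) and -1.09 (Sst) in DD against WT were not called with the low-count filter. No detection limit was computed.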
